A study of Homo sapiens with 8 samples.

Results

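The matrix metalloproteinases MMP1, MMP2, MMP3, MMP9, MMP13 and MMP14 and the tissue inhibitors TIMP1, TIMP2 and TIMP3 were followed in human chordoma cells given TNF-α, an inflammatory cytokine. These 9 genes were taken by name from the 22395 genes of the array table, through probe sets annotated to no other gene, and all 9 were found. The arrays came from 4 groups: U-CH1 cells given TNF-α (1 array), untreated U-CH1 cells (3 arrays), MUG-Chor1 cells given TNF-α (1 array) and untreated MUG-Chor1 cells (3 arrays). Treatment was with human recombinant TNF-α at 10 ng/mL, added 3 times a week for 1 week, and all groups grew in gelatin-coated flasks or plates in medium with serum. U-CH1 and MUG-Chor1 are established lines, each derived from a chordoma, a bone tumour with notochordal features. Each TNF group is 1 array without a replicate, and the labels do not say that the controls of a line were separate cultures, so p-values measure the spread between these arrays, which may be technical.

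MMPs are zinc-dependent proteases that cut extracellular matrix and cell surface proteins. They are made as inactive precursors, and TIMPs block the active enzymes by binding their catalytic site. The genes of several secreted MMPs are known to respond to inflammatory cytokines through AP-1 and NF-kB, and in cartilage and intervertebral disc such proteases take part in matrix breakdown. The arrays measured RNA, so secretion, activation and inhibition of the enzymes were not seen here.

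Values are log2 probe set values, for which no detection call was available, and they are compared within a gene and not between genes. To be tested, a gene had to exceed 2.57, the table's overall median, on 1 or more arrays. That left 16986 genes and 8 of the 9 members: MMP13 was below it on every array, and MMP3 passed through the MUG-Chor1 TNF array alone. Differences were tested with limma, two-sided, over all tested genes, and a change was called at a Benjamini-Hochberg adjusted p under 0.05. The single TNF array of a line was assumed to vary like the controls. The chordoma marker TBXT, which encodes brachyury, read 7.51 to 9.75 over the 8 arrays and was lower by 1.92 with TNF in MUG-Chor1. All 10 listed chordoma markers exceeded the table's median on 1 or more arrays. Of 8 leukocyte markers in the table, 2 lay under it on every array, PTPRC (0.93 to 1.23) and CD3E, and the others exceeded it on 1 or more arrays. MUG-Chor1 control 3 stood apart from the other controls of its line in MMP2 and TIMP2. In bulk RNA, fewer cells expressing a gene and less RNA per cell cannot be told apart.

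Promoter letters are shown for MMP14, TIMP1 and TIMP3 because these were the only 3 of 9 members in the RefSeq promoter table (GRCh38.p14). The untreated lines differed in MMP14 and TIMP3 while TIMP1 gave no call in any comparison, and a relation of these results to the letters was not tested. Each line gives the 250 bases before the annotated start, 5′ to 3′ on the plus strand, at chr14:22836335-22836584 for MMP14, chrX:47582186-47582435 for TIMP1 and chr22:32801455-32801704 for TIMP3. Capitals mark matches on either strand to the GC box GGGCGG and to the AP-1-like letters TGAGTAA.
MMP14: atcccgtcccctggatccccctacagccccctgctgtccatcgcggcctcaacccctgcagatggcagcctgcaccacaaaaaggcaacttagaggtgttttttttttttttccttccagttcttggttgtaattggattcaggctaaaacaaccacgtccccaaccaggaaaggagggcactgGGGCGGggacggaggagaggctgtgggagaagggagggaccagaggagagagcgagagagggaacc
TIMP1: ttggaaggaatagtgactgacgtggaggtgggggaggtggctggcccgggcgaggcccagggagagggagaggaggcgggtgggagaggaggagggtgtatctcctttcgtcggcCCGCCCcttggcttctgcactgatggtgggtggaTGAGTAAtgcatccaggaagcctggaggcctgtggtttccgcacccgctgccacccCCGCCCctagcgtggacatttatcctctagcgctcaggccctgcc
TIMP3: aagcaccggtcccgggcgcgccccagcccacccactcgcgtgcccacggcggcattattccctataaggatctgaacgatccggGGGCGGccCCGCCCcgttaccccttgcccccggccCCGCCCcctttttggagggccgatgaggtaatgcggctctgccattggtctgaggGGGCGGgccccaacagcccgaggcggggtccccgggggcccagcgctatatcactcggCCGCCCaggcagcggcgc
The GC box was matched 5 times in TIMP3, 2 times in TIMP1 and 1 time in MMP14, and 42.6% of the 35116 promoters of this length in the table held at least 1 match. TGAGTAA was found in TIMP1 at -101 to -95 from the start and in 2.21% of all promoters. The AP-1 letters TGANTCA (6.57% of promoters) and the TATA letters TATAAA (10.7%) had no match in these 3 windows. No motif match overlapped another in these windows, and a match describes letters, not binding.

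Across both lines MMP9 and MMP1 rose with TNF, and no TIMP passed the test. In an additive model of line and TNF, 2 of the 8 tested members rose and none fell, while 2.48% of all tested genes were called in either direction. The 5 tested MMPs had a median log2 change of 1.35 and the 3 TIMPs 0.10, beside 0.05 over all tested genes. The plot of all 9 genes on the 8 arrays shows the values behind these changes.

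**Figure D1:**
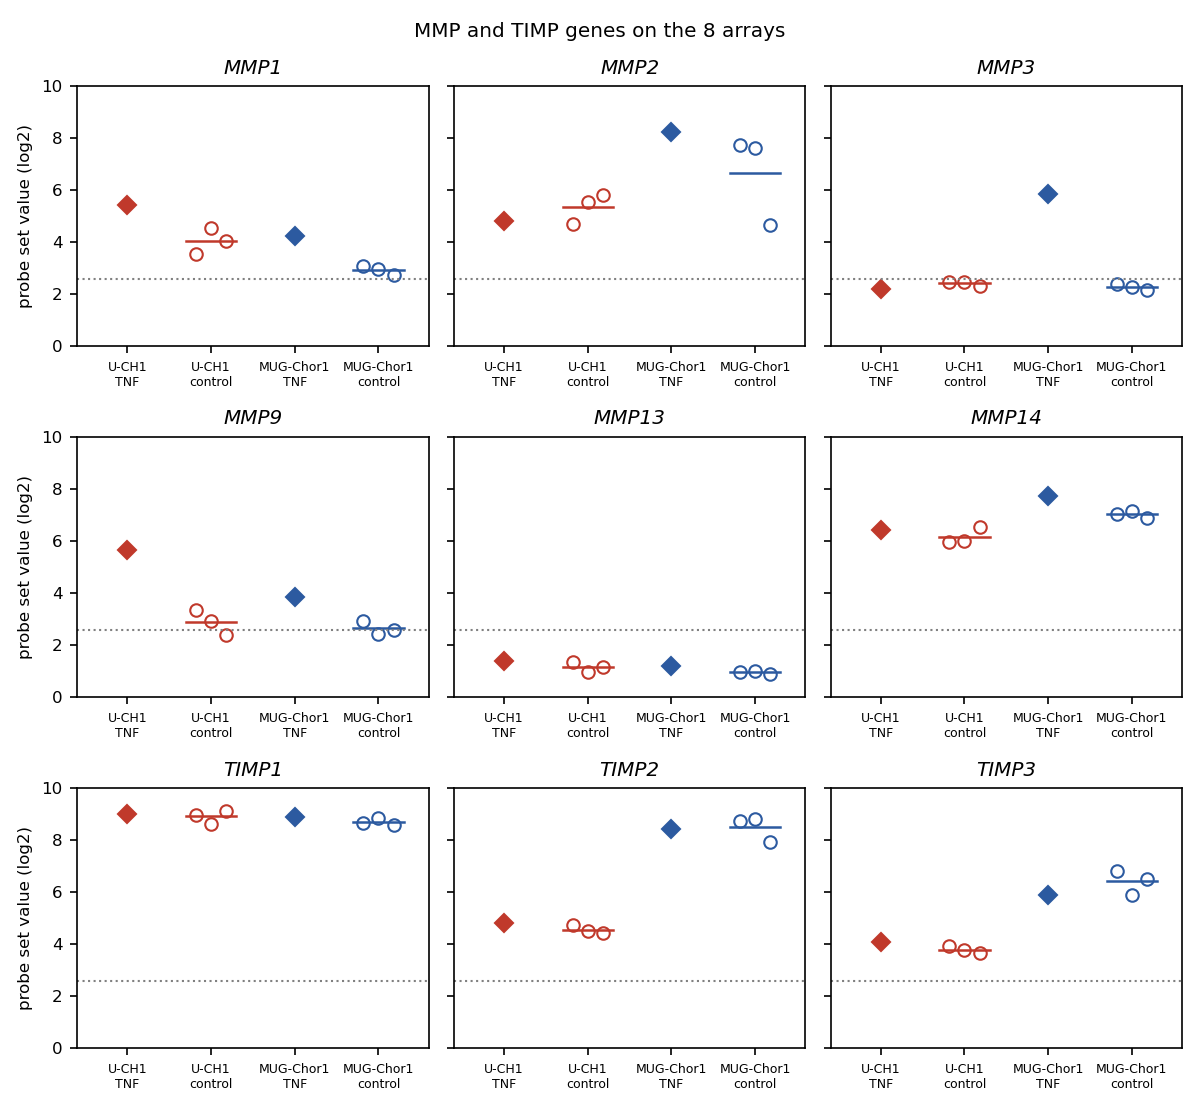
Probe set values (log2) of the 9 genes by group; filled diamonds are the single TNF arrays, open circles the controls, bars the control means, and the dotted line marks the table's overall median, 2.57. MMP1 and MMP9 are above the controls on both TNF arrays, MMP3 on the MUG-Chor1 TNF array only, and TIMP2 and TIMP3 differ between the lines more than with TNF.

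MMP1 encodes interstitial collagenase, which cuts fibrillar collagens. It read 5.44 on the U-CH1 TNF array, against 3.55, 4.53 and 4.03 on the U-CH1 controls. In MUG-Chor1 it read 4.22 on the TNF array, against 3.09, 2.96 and 2.75 on the controls. Both TNF arrays lay above all controls of their line. Across both lines MMP1 rose by a log2 of 1.35 ± 0.25 (SE), 2.54-fold (adjusted p = 0.0197). Neither line passed on its own, at 1.41 for U-CH1 (adjusted p = 0.109) and 1.29 for MUG-Chor1 (adjusted p = 0.105), and the call across both lines ended without either TNF array (adjusted p = 0.104 without the U-CH1 one and 0.109 without the other).

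MMP13, another collagenase and a marker of hypertrophic cartilage, read 1.41 on the U-CH1 TNF array against 0.99 to 1.37 on the controls, and 1.21 on the MUG-Chor1 TNF array against 0.90 to 1.01. All 8 values lay well under the median of the arrays. Without a filter its change was 0.24 in either line (adjusted p = 0.867 in U-CH1 and 0.866 in MUG-Chor1), with an interval of -0.29 to 0.78 (95%) in U-CH1 and -0.29 to 0.77 in MUG-Chor1.

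MMP3 encodes stromelysin-1, which cuts proteoglycans and can activate other MMP precursors. The MUG-Chor1 values were 5.84 on the TNF array, against 2.38, 2.29 and 2.14 on the controls. In U-CH1 it read 2.22 on the TNF array, against 2.47, 2.47 and 2.31 on the controls. The MUG-Chor1 TNF array was the only array above the median of the table, and the U-CH1 TNF array lay under all its controls. In MUG-Chor1 MMP3 rose by 3.56 ± 0.26 (SE) on the log2 scale, 11.8-fold in probe set value (adjusted p = 0.000127). All 3 MUG-Chor1 controls lay under the table's median, so the size of this change rests on a dim baseline without a detection call. Its change in U-CH1 was -0.20 (adjusted p = 0.880; 95% interval -0.77 to 0.37). A gene that enters the test through the array where it is high had to differ there, but with no filter the call in MUG-Chor1 was much the same (adjusted p = 0.000181). Across both lines MMP3 did not pass in the additive model (1.68, adjusted p = 0.193). The same mean change passed in the model of 4 group means (adjusted p = 0.000621), where the difference between the lines does not count as residual.

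MMP9 encodes gelatinase B, which cuts denatured collagen and basement membrane collagen. It read 5.65 on the U-CH1 TNF array, against 3.35, 2.94 and 2.41 on the controls. In MUG-Chor1 it read 3.84 on the TNF array, against 2.95, 2.42 and 2.59 on the controls. The groups did not overlap in either line. U-CH1 control 3 and MUG-Chor1 control 2 lay under the table's median of 2.57, and MUG-Chor1 control 3 just above it. The size of the MMP9 changes therefore rests on a partly dim baseline without a detection call. MMP9 rose across both lines by 1.97 ± 0.34 (SE), 3.92-fold (adjusted p = 0.0161). In U-CH1 it rose by 2.75 ± 0.37 (SE), 6.74-fold (adjusted p = 0.00682), as the 24th highest change. In MUG-Chor1 its change was 1.19 (adjusted p = 0.150), which is also the value across lines without the U-CH1 TNF array (adjusted p = 0.149). Leukocytes carry much MMP9, and of 9 leukocyte markers 8 were in the table. Their mean log2 value was 3.30 on the U-CH1 TNF array against 2.90 to 2.92 on its controls, and 3.13 on the MUG-Chor1 TNF array against 2.96 to 3.17. CD68 and ITGAM rose across both lines, by 0.84 and 0.83, while LYZ and CSF1R stood at -0.15 and -0.08 and were not called. The calls of CD68 and ITGAM each ended without U-CH1 control 1 or 2, MUG-Chor1 control 1 or 2 or either TNF array, that of CD68 also without MUG-Chor1 control 3 and that of ITGAM without U-CH1 control 3 (adjusted p up to 0.383 for CD68). PTPRC and CD3E lay under the table's median on all 8 arrays, and the part of these markers in the MMP9 change was not tested.

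MMP2, gelatinase A, read 4.80 on the U-CH1 TNF array, against 4.71, 5.54 and 5.81 on the controls. MUG-Chor1 cells gave 8.24 on the TNF array, against 7.74, 7.62 and 4.66 on the controls. MUG-Chor1 control 3 lay 3.02 under the mean of controls 1 and 2, just under all U-CH1 arrays. The change in MUG-Chor1 was 1.57 ± 0.96 (SE; adjusted p = 0.598) and 0.56 without control 3, and in U-CH1 it was -0.55 (adjusted p = 0.928). A second MMP2 probe set read 1.52 to 1.99 on all 8 arrays, under the median of the table, and did not show the difference between the lines.

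MMP14, a membrane-bound MMP that activates the MMP2 precursor together with TIMP2, read 7.74 on the MUG-Chor1 TNF array, against 7.04, 7.17 and 6.88 on the controls. In U-CH1 it read 6.43 on the TNF array, against 5.95, 6.02 and 6.55 on the controls. The MUG-Chor1 TNF array lay above its controls, and the U-CH1 TNF array lay among its own. The change was 0.71 in MUG-Chor1 (adjusted p = 0.359) and 0.26 in U-CH1 (adjusted p = 0.870), and 0.49 across both lines (adjusted p = 0.319).

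No inhibitor passed the test for TNF, and their changes were small beside those of MMP1 and MMP9. TIMP1, a broad MMP inhibitor that also binds the MMP9 precursor, read 8.997 on the U-CH1 TNF array, against 8.98, 8.62 and 9.13 on the controls. In MUG-Chor1 it read 8.88 on the TNF array, against 8.66, 8.85 and 8.56 on the controls. All 8 arrays lay within 8.56 to 9.13. The 95% interval of its change across both lines was -0.29 to 0.57 (0.14, adjusted p = 0.808).

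TIMP2, which inhibits MMP2 and also links its precursor to MMP14, read 4.80 on the U-CH1 TNF array, against 4.74, 4.51 and 4.45 on the controls. The MUG-Chor1 readings were 8.44 on the TNF array, against 8.73, 8.80 and 7.93 on the controls. The TNF array was just above its controls in U-CH1 and among them in MUG-Chor1. The interval across both lines was -0.44 to 0.64 (0.10, adjusted p = 0.902).

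TIMP3, which is held in the matrix and also inhibits ADAM proteases such as the one that sheds TNF, read 4.10 on the U-CH1 TNF array, against 3.92, 3.76 and 3.68 on the controls. MUG-Chor1 cells gave 5.89 on the TNF array, against 6.81, 5.90 and 6.51 on the controls. The TNF array lay just above all controls in U-CH1 and just under all of them in MUG-Chor1. The changes were 0.32 in U-CH1 (95% interval -0.45 to 1.08) and -0.52 in MUG-Chor1 (-1.28 to 0.25), and -0.10 across both lines (adjusted p = 0.907).

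**Figure D2:**
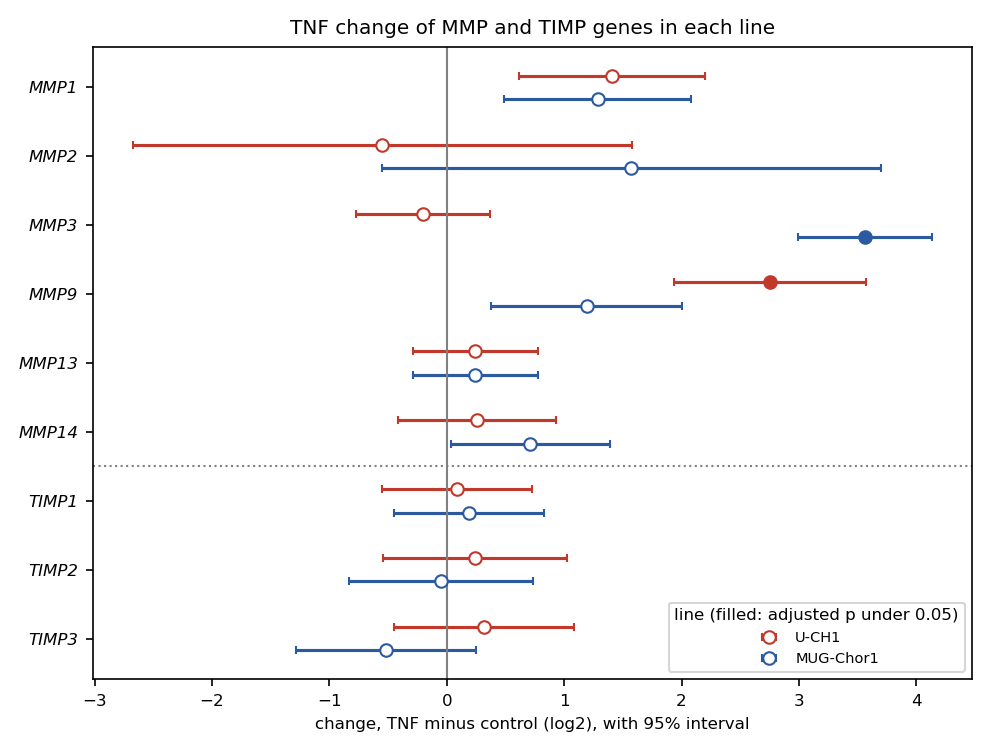
Change of each gene in each line (TNF minus control mean, log2) with its 95% interval from limma; MMP13 is from the fit without a filter, and filled points passed an adjusted p under 0.05. MMP9 passed in U-CH1 (2.75) and MMP3 in MUG-Chor1 (3.56), and the interval of every TIMP spans 0 in both lines.

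Set against each other within a line, proteases moved more than inhibitors in MUG-Chor1. There the median change of the 6 MMPs was 1.24 and that of the 3 TIMPs -0.05, a difference of 1.29, against differences of -0.17, -0.19 and -0.01 for each MUG-Chor1 control set against the other 2. In U-CH1 the medians were 0.25 and 0.24, a difference of 0.01, against -0.33, 0.16 and 0.14 for the U-CH1 controls. The U-CH1 median hides a split, since MMP9 and MMP1 stood at 2.75 and 1.41 and the other MMPs at -0.55 to 0.26. With means in place of medians MUG-Chor1 gave a difference of 1.55 and U-CH1 one of 0.44. The MUG-Chor1 median of 1.24 lies between MMP1 (1.29) and MMP9 (1.19), which were not called there, and of the MMPs only MMP3 was. The 6 include MMP13, under the table's median on every array, and MMP2, at 1.57 in MUG-Chor1 and 0.56 without MUG-Chor1 control 3. These summaries over chosen genes carry no test.

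**Figure D3:**
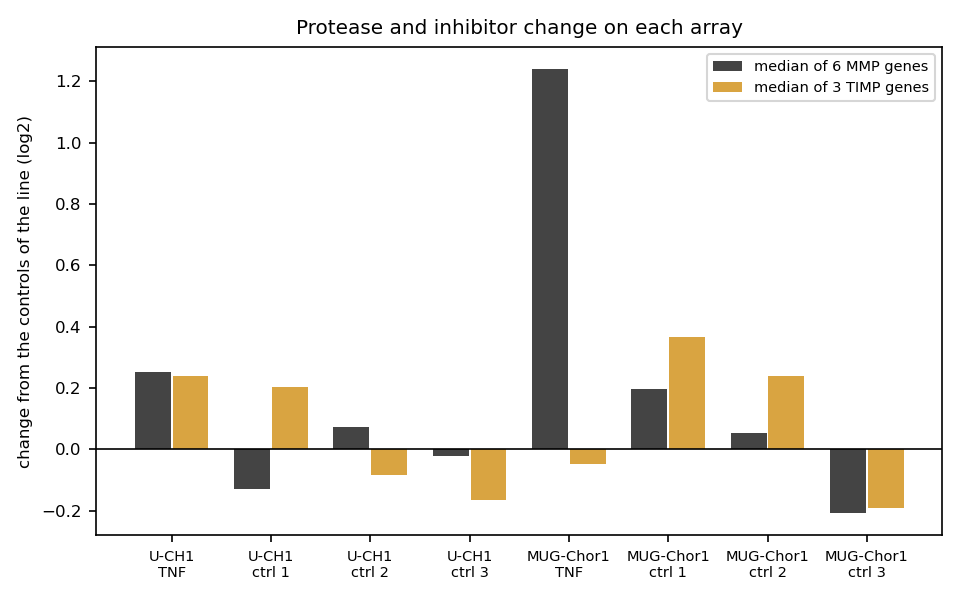
Median change (log2) of the 6 MMP genes and the 3 TIMP genes on each array, a TNF array against the mean of its line's controls and a control against the mean of the other 2. The MMP bar of the MUG-Chor1 TNF array reaches 1.24 while its TIMP bar is at -0.05; on the U-CH1 TNF array they are 0.25 and 0.24.

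By count, 1 of the 8 tested members rose with TNF in U-CH1 and none fell, where 1.27% of tested genes were called and 0.913% rose. The count was also 1 of 8 in MUG-Chor1, where 2.88% were called and 1.47% rose. The TNF array lay above all controls for 4 of 8 members in U-CH1 and for 6 of 8 in MUG-Chor1, where 30.8% and 35.3% of all tested genes did so. It lay below all controls for 1 of 8 in each line, MMP3 in U-CH1 and TIMP3 in MUG-Chor1, against 23.4% and 23.9% of tested genes. The TNF array was above all controls in both lines for 2 of 8, MMP1 and MMP9, and for 15% of tested genes.

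The difference of the TNF effects between the lines was tested directly as an interaction. MMP3 was the 1 member called, with a change 3.77 ± 0.36 (SE) higher in MUG-Chor1 than in U-CH1 (adjusted p = 0.00166), and 0.53% of tested genes were called, 0.2% with the higher change in MUG-Chor1. For MMP9 the difference was -1.56 (95% interval -2.71 to -0.41; adjusted p = 0.385), so that the call in U-CH1 and its absence in MUG-Chor1 do not show that the lines differ. For MMP1 it was -0.12 (-1.25 to 1.00), for MMP14 0.45 (-0.50 to 1.41), for TIMP1 0.10 (-0.80 to 1.01), for TIMP2 -0.29 (-1.40 to 0.82) and for TIMP3 -0.84 (-1.92 to 0.25). MMP2 had the widest interval of these, 2.12 (-0.89 to 5.13). The FAP gene, which marks activated fibroblasts, moved in the same MUG-Chor1 array as MMP3, reading 5.71 on it and 1.63 to 2.29 on the other 7 arrays. Like MMP3 it entered the test through that array alone, and without a filter the adjusted p of FAP in MUG-Chor1 was 0.000343. Of 9 listed fibroblast markers 7 were in the table, and FAP, DPP4 and DCN rose in MUG-Chor1, with adjusted p for DPP4 up to 0.0644 when a control was left out. The other 4 were not called and lay below 0, THY1 at -0.81, COL1A1 at -0.57, PDGFRB at -0.56 and COL1A2 at -0.07, and the list's median change was -0.07. The mean log2 value of the list was 4.39 on the MUG-Chor1 TNF array against 3.25 to 3.87 on its controls, and 3.37 on the U-CH1 TNF array against 3.06 to 3.29. Of 10 chordoma markers, 6 fell in MUG-Chor1, where 1.41% of all tested genes fell and 1.47% rose. The mean of the 10 was 4.77 on the TNF array against 6.57 to 6.85 on the controls. The part of these shifts in the MMP3 change was not tested.

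Without TNF the lines differed most in their inhibitors. TIMP2 averaged 8.49 ± 0.48 in MUG-Chor1 controls and 4.56 ± 0.15 in U-CH1 controls (SD, n = 3 each), a log2 difference of 3.92 ± 0.25 (SE), 15.2-fold (limma adjusted p = 4.85e-06). TIMP3 averaged 6.41 ± 0.47 in MUG-Chor1 controls and 3.78 ± 0.13 in U-CH1 controls (SD, n = 3 each), a difference of 2.62 ± 0.24 (SE), 6.17-fold (limma adjusted p = 5.53e-05). In both genes every MUG-Chor1 array, treated or not, lay above every U-CH1 array. TIMP1 averaged 8.69 and 8.91, and its difference of -0.22 did not pass (adjusted p = 0.511).

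Among the proteases, MMP14 averaged 7.03 ± 0.14 in MUG-Chor1 controls and 6.17 ± 0.33 in U-CH1 controls (SD, n = 3 each), a difference of 0.86 (limma adjusted p = 0.0191). That call ended without any of 4 control arrays (U-CH1 control 1 or 2, MUG-Chor1 control 1 or 2; adjusted p = 0.0615 to 0.0752). MMP1 went the other way, averaging 2.94 ± 0.17 in MUG-Chor1 controls and 4.04 ± 0.49 in U-CH1 controls (SD, n = 3 each), a difference of -1.10 (limma adjusted p = 0.0127). MMP2 did not pass with all arrays (1.32 ± 0.68, SE; adjusted p = 0.216), and without MUG-Chor1 control 3 its difference was 2.33 (adjusted p = 0.000466). MMP3 and MMP9 differed by -0.15 and -0.25 (adjusted p = 0.632 and 0.565). In all, 3 of 8 members were higher and 1 lower in MUG-Chor1, where 18.9% of tested genes were called, 10.3% higher and 8.57% lower. The control arrays did not overlap for the same counts, 3 with MUG-Chor1 above and 1 below, as for 18.1% and 18.2% of tested genes.

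**Figure D4:**
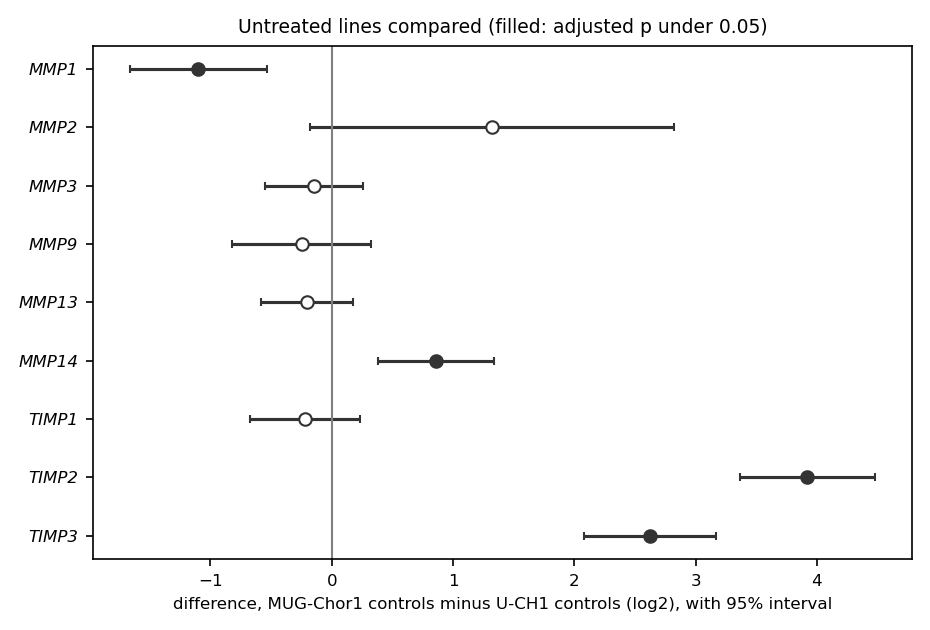
Difference between the untreated lines (MUG-Chor1 controls minus U-CH1 controls, log2) with its 95% interval from limma; MMP13 is from the fit without a filter, and filled points passed an adjusted p under 0.05. TIMP2 (3.92) and TIMP3 (2.62) stand apart to the right, and MMP1 (-1.10) is the only filled point to the left.

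MMP1, MMP3 and MMP13 belong to a run of 9 neighbouring MMP genes in the RefSeq gene table, in the order MMP7, MMP20, MMP27, MMP8, MMP10, MMP1, MMP3, MMP12 and MMP13. MMP1 and MMP3 are next to each other in it. MMP10, a second stromelysin beside MMP1, stayed at 1.33 to 2.18 and MMP12, the macrophage elastase beside MMP3, at 1.49 to 2.06 on the 8 arrays, under the median of the table. MMP8, the neutrophil collagenase, read 2.80 on the MUG-Chor1 TNF array against 1.69 to 1.82 on the controls (1.04, adjusted p = 0.0970), and MMP7, matrilysin, reached 2.70 on the U-CH1 TNF array against 1.89 to 2.09 (0.74, adjusted p = 0.288). MMP7 also lay above all controls in MUG-Chor1, at 2.27 on the TNF array against 1.59 to 1.79 (0.60). MMP8 passed the filter through the MUG-Chor1 TNF array alone and MMP7 through the U-CH1 one alone. These 4 genes, MMP10, MMP12, MMP8 and MMP7, were picked after their values were seen.

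Among all 16 other MMP genes listed, 9 were tested. By limma none of them passed across both lines, where 3 were higher and 0 lower at an unadjusted p under 0.05, nor in U-CH1 alone (3 and 0 at that threshold) or MUG-Chor1 alone (3 and 1). Their median change across both lines was 0.25. Between untreated lines 1 of the 9 was called, where 18.9% of all tested genes were. That gene was MMP19, at 5.29, 5.88 and 5.78 in MUG-Chor1 controls against 3.01, 3.08 and 3.12 in U-CH1 controls (2.58, limma adjusted p = 2.18e-05). With TNF it read 4.39 in U-CH1, above all its controls (1.32, adjusted p = 0.0634), and 4.98 in MUG-Chor1, under all of them (-0.67, adjusted p = 0.378).

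**Figure D5:**
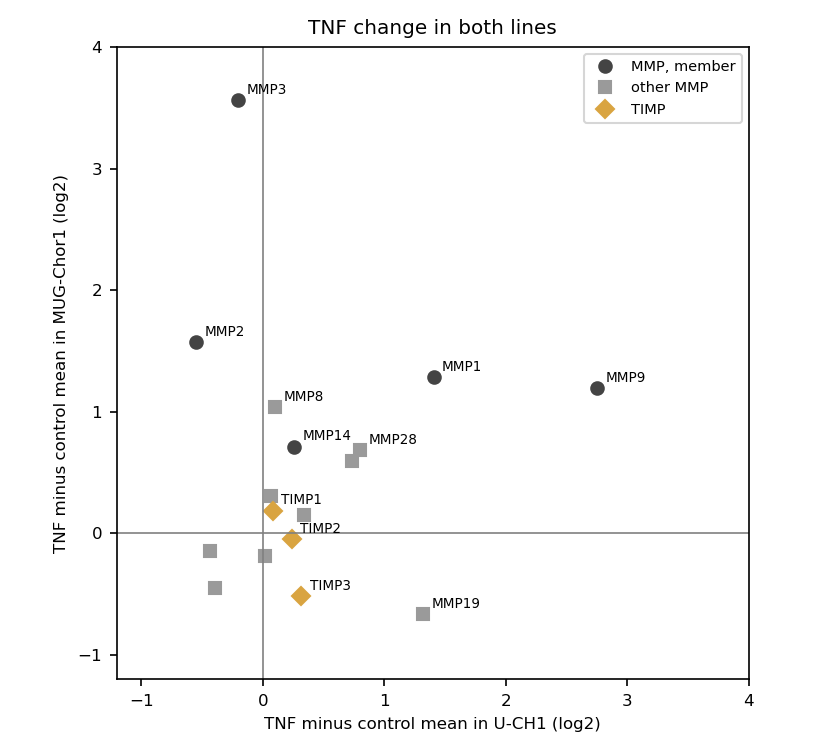
TNF change in U-CH1 (horizontal) and in MUG-Chor1 (vertical), each TNF minus control mean (log2), for TIMP1, TIMP2, TIMP3 and the tested MMP genes; members and the largest other changes are named. MMP1 and MMP9 lie high on both axes, MMP3 and MMP2 on the vertical axis only, and TIMP1, TIMP2 and TIMP3 at 0.09 to 0.32 on the horizontal and -0.52 to 0.19 on the vertical axis. The MMP2 change in MUG-Chor1 was not called, and it was 1.57 with all controls and 0.56 without MUG-Chor1 control 3.

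Of 18 listed inhibitors, activators and inducers of MMPs, 14 were tested. Across both lines 2 rose, TFPI2 by 2.42 (adjusted p = 0.00927) and CLDN1 by 2.24 (adjusted p = 0.0249), and none fell, with a list median of 0.28. Of all tested genes 1.55% rose and 0.93% fell in this comparison, which is also the background of the next 2 lists. TFPI2 encodes a matrix-bound inhibitor of serine proteases. It read 5.56 on the U-CH1 TNF array, against 3.07, 3.33 and 3.11 on the controls, and 7.22 on the MUG-Chor1 TNF array, against 4.43, 4.05 and 5.85 on the controls. Both TNF arrays were above all controls, and the call ended without the MUG-Chor1 TNF array (adjusted p = 0.0679). CLDN1, a tight junction gene, lost its call without U-CH1 control 1 or 2, MUG-Chor1 control 1 or either TNF array (highest adjusted p = 0.176). In MUG-Chor1 TFPI2 rose by 2.45 (adjusted p = 0.0398) and PLAUR, the receptor of urokinase, by 1.51 (adjusted p = 0.0330), and TSPAN12 fell by 2.49 (adjusted p = 0.00688). The TFPI2 call in MUG-Chor1 ended in 6 of 15 alternatives (adjusted p up to 0.112) and that of PLAUR in 3 (up to 0.0594); MUG-Chor1 control 1 and U-CH1 control 1 each ended both. Of all tested genes 1.47% rose and 1.41% fell in MUG-Chor1. None of the 14 passed the limma test in U-CH1, where 3 were above 0 and 0 below it at an unadjusted p under 0.05. RECK, a membrane-anchored MMP inhibitor, stood at -0.09 and TIMP4 at 0.36 across both lines (adjusted p = 0.919 and 0.527).

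Transcription factors known to act on MMP promoters moved in both directions. Of 21 tested, 3 rose and 3 fell across both lines, with a median of 0.22. FOSB and FOS, which encode AP-1 subunits, fell by 4.28 and 4.00 and ETV1 by 2.63, while RELB rose by 1.58, a little more than the other NF-kB genes called, NFKB2 (1.43) and NFKB1 (1.14). Without the U-CH1 TNF array RELB and NFKB1 were no longer called (adjusted p = 0.164 and 0.184), nor was RELB without MUG-Chor1 control 1. FOS read 3.56 on the U-CH1 TNF array, against 6.79, 6.10 and 7.08 on the controls, and 2.84 on the MUG-Chor1 TNF array, against 7.10, 7.82 and 8.34 on the controls. MMP1 and MMP9 were higher on the same arrays on which FOS was lower, and a relation between these changes was not tested. Of the other AP-1 subunit genes across both lines, FOSL1 stood at 0.65 (adjusted p = 0.250), FOSL2 at 0.22 and JUNB at 0.03. JUN stood at -0.54 and JUND at -0.56, and none of these was called. Within U-CH1 alone the largest changes of the list were FOSB at -3.90, FOS at -3.09, RELB at 1.90, which was not called, and NFKB2 at 1.58. ETV1 (-1.51), NFKB1 (1.47) and ETS2 (-1.25) were also called there. The FOS call ended without U-CH1 control 1, and that of NFKB2 without U-CH1 control 2 or 3 or MUG-Chor1 control 1. Those of ETV1, NFKB1 and ETS2 ended without any U-CH1 control or MUG-Chor1 control 1, and that of ETS2 also without MUG-Chor1 control 2. Within MUG-Chor1 alone they were FOS at -4.91, FOSB at -4.65 and ETV1 at -3.75. Each of these rests on 1 TNF array. In MUG-Chor1 the bone and cartilage factor RUNX2 rose by 1.52 and CEBPB by 1.36 (adjusted p = 0.0198 and 0.0239); each call ended without MUG-Chor1 control 1 or 2 (adjusted p up to 0.0580 for RUNX2 and 0.0591 for CEBPB).

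Of 14 tested matrix substrate genes, 2 fell across both lines, ACAN, the aggrecan gene, by 2.43 and COL11A1 by 1.31 (adjusted p = 0.0482 and 0.0438), and the list median was -0.10. In MUG-Chor1 3 fell, ACAN by 4.09, COL2A1, the cartilage collagen gene, by 2.82 and COL11A1 by 1.96, and DCN rose by 1.60. Of all tested genes 1.41% fell and 1.47% rose in that line. By limma none passed in U-CH1, with 1 higher and 1 lower where p was left unadjusted (under 0.05). The DCN call ended without U-CH1 control 1 and without MUG-Chor1 control 1 or 2 (adjusted p up to 0.105). ACAN read 4.33 on the MUG-Chor1 TNF array, against 8.16, 8.34 and 8.75 on the controls, and 7.93 on the U-CH1 TNF array, against 9.07, 8.29 and 8.78 on the controls. Its fall was larger in MUG-Chor1, by 3.31 in the test of the difference (adjusted p = 0.0211). That call ended without U-CH1 control 3 (adjusted p = 0.0548). Across both lines the ACAN call ended without any of the 6 controls and without the MUG-Chor1 TNF array (adjusted p up to 0.462), and that of COL11A1 without that array or any control but MUG-Chor1 control 3 (up to 0.490).

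The genes whose values over the 8 arrays were most like those of the called members were named by Pearson correlation, which here mostly reflects the 2 lines and the 2 TNF arrays that all genes share. For MMP3 they were FAP (r = 0.992), RSPO3 (0.987) and RRAD (0.985). RSPO3 read 3.84 and RRAD 5.53 on the MUG-Chor1 TNF array, against 1.51 to 1.88 and 2.23 to 2.60 on its controls. FAP and RSPO3 passed the filter through that array alone, and that 1 array largely sets the correlations with MMP3. For MMP9 they were TWIST2 (0.985), LAMB3 (0.970) and DLGAP4 (0.962). TWIST2 read 3.97 on the U-CH1 TNF array, against 1.89 to 2.42 on its controls, and LAMB3, a laminin chain gene, 6.45 against 4.17 to 4.68. TWIST2 passed the filter through the TNF arrays alone. For MMP1 they were UBE2A (0.979), PIERCE2 (0.975) and RPAP3 (0.972).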

How the data were processed

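RNA of 8 samples was measured on whole-transcript arrays. Per the submitters' processing notes, the authors used RMA and Transcriptome Analysis Console, without versions given; the deposited table has 53617 probe sets, and its values are read here as log2 because RMA gives that scale and because they span 0.0648 to 12.7. The log base and build are not given in the sources used here. RMA brings arrays to a common distribution (array medians were 2.52 to 2.63), so a shift common to the whole transcriptome is invisible, and no further normalization was applied.

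Of the probe sets, 23871 had 1 gene symbol in the platform annotation, 1842 had several and 27904 had none listed; 22569 were matched to RefSeq by Entrez identifier. Of several probe sets of a gene the brightest on average was used. limma 3.58.1 (R 4.3.3) fitted line and TNF additively (5 residual degrees of freedom) and, for all other comparisons, 4 group means (4 residual degrees of freedom). The scripts were tested on simulated data.

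The members and gene lists were chosen with earlier results of these data known. The naming rule took the 9 members always, up to 4 called genes of each list per comparison, and the 3 most correlated genes of each member called for TNF. The text does not keep to it throughout. Uncalled genes such as RECK, TIMP4 and FOSL1 and further called ones such as NFKB1, NFKB2 and CEBPB are also named. Some genes that the rule took are not named. Alternatives covered the filter, probe set choice, normalization, variance model, array weights, the model and leaving out each array. Precision is limited by how few arrays there are, and scan batches were not used here. The control numbers were not treated as pairs, since same-numbered controls of the lines deviated together at r = 0.04, -0.06 and 0.16.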

Additional observations from a re-analysis of the deposited data

Results flagged for a closer look

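MMP3 is given here because its TNF effects differed between the lines in the test of that difference. It rose in MUG-Chor1 and not detectably in U-CH1, a difference of 3.77 on the log2 scale (adjusted p = 0.00166). The call held in all 14 alternatives run for it, with adjusted p from 0.000702 to 0.0106 and differences from 3.66 to 3.82. It rests on 1 array of TNF-treated MUG-Chor1 cells, at 5.84 against 2.14 to 2.47 on the 6 controls, with no replicate. Every alternative kept that array, since the difference cannot be fitted without it. Dixon's test for 1 outlying array within a group was not run, and it cannot be applied to a TNF group of 1 array.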

How the results depend on the processing

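Of 629 values of member changes under alternatives, 607 kept their direction and their side of the threshold. These include members not called to begin with. They also include estimates that could not move, such as the change in 1 line with a control of the other line left out. Members called across both lines numbered 1 to 2 with an array left out (2 with all; without the U-CH1 TNF array only MMP3, without the MUG-Chor1 one only MMP9). Between untreated lines 3 to 5 were called (4 with all), and in U-CH1, in MUG-Chor1 and for the difference 1 throughout. Genes called with an array left out numbered 200 to 491 across both lines (422 with all), 106 to 329 in U-CH1 (216), 286 to 668 in MUG-Chor1 (489), 38 to 152 for the difference (90) and 2125 to 3209 between untreated lines (3209). The mean of the line contrasts in the model of 4 group means called 739 genes across both lines, and array weights called 765 in MUG-Chor1. Array weights also called MMP2 between untreated lines (1.92, adjusted p = 0.0358).

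Signs turned in members that were not called and in the U-CH1 balance of MMPs and TIMPs. With an array left out, the values across both lines ranged from -0.55 (without the MUG-Chor1 TNF array; -0.02 without MUG-Chor1 control 3) to 1.57 for MMP2, from -0.047 (without the U-CH1 TNF array; -0.026 without MUG-Chor1 control 3) to 0.24 for TIMP2, and from -0.52 to 0.32 (without the MUG-Chor1 TNF array; 0.02 without MUG-Chor1 control 1) for TIMP3. TIMP1 in U-CH1 ranged from -0.059 (without U-CH1 control 2) to 0.20, and TIMP2 in MUG-Chor1 from -0.32 to 0.11 (without MUG-Chor1 control 2; 0.08 without control 1). In the difference MMP1 ranged from -0.37 to 0.12 (without U-CH1 control 1) and TIMP1 from -0.011 (without U-CH1 control 3) to 0.25. The MMP minus TIMP median was -0.081 to 0.14 in U-CH1 with a control left out (-0.081 without control 1, -0.044 without control 2) and 0.44 with means. In MUG-Chor1 it was 1.08 to 1.28 with a control left out, 1.08 with all probe sets averaged and 1.55 with means. The cause of these changes was not tested.

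With the control number as a replicate block, 4 members and 3248 genes were called between untreated lines, against 4 and 3209 without it; with 6 control arrays these numbers name arrays only. No paired analysis was possible for TNF because each line has 1 TNF array. MMP13 on all arrays and MMP3 on all but the MUG-Chor1 TNF array lay under the median of the table, where changes may be understated. MMP9 lay under it on U-CH1 control 3 and MUG-Chor1 control 2.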
